A study of Mus musculus with 12 samples.

Results

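The let-7 and miR-98 guide arms were described across exosomes of mouse ovarian granulosa cells, the steroid-producing cells that surround the oocyte. The members were the entries named mmu-let-7a-5p, mmu-let-7b-5p, mmu-let-7c-5p, mmu-let-7d-5p, mmu-let-7e-5p, mmu-let-7f-5p, mmu-let-7g-5p, mmu-let-7i-5p and mmu-miR-98-5p, which made 9 of the 637 miRNA entries listed. They were picked by their names, with earlier results of these data known. Small RNA of exosomes was sequenced in 12 libraries, with 3 in each of the groups CON, FAC, DFO and VE. In all groups the cells were first held for 24 h in medium free of exosomes and then cultured for 48 h, without any addition in CON, with 100 μM ferric citrate, an iron salt, in FAC, with 100 μM ferric citrate and 100 μM of the iron chelator deferoxamine mesylate in DFO, and with 100 μM ferric citrate and 200 μM of the antioxidant vitamin E (VITE) in VE. Iron was therefore added in 3 of the 4 groups, and neither deferoxamine nor vitamin E was given alone. The cells were primary cultures from ovaries of female Kunming mice primed with pregnant horse serum gonadotropin, enriched by trypsin and a cell strainer and not sorted. The age of the mice, the number of animals behind a culture and whether the libraries of a group came from separate cultures were not given in the sources used here, and the p-values then measure only the spread between these libraries, which may be technical.

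The let-7 miRNAs are among the most conserved small RNAs of animals. They accumulate as cells differentiate, and the RNA-binding protein LIN28 holds them back in embryonic and germ cells by blocking the maturation of their precursors. Each hairpin precursor is cut by Drosha and Dicer, and 1 arm, the guide, is loaded into an Argonaute protein. The seed of the guide, bases 2 to 8, pairs with target mRNAs such as those of Hmga2 and the Ras genes, which are then repressed. The 5p arm is taken here as the guide by name. For let-7d the 3p arm had more counts in 12 of 12 libraries. No mRNA was measured here.

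The 9 mature sequences are shown because they share 1 seed and differ in few other bases. For members that are 1 base apart, a sequenced read can be placed on the wrong member after 1 base change. The sequences were taken from RefSeq (GRCm38.p6) and are written 5′ to 3′ with the seed in capitals.
mmu-let-7a-5p: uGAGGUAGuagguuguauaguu
mmu-let-7b-5p: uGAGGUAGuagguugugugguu
mmu-let-7c-5p: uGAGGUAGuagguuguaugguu
mmu-let-7d-5p: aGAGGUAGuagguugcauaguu
mmu-let-7e-5p: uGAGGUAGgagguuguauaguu
mmu-let-7f-5p: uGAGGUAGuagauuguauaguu
mmu-let-7g-5p: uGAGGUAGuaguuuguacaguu
mmu-let-7i-5p: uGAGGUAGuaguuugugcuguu
mmu-miR-98-5p: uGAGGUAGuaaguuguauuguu

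All 9 sequences were 22 bases long. Relative to let-7a, with positions counted from 1 at the 5′ end, let-7c carried A19G and let-7b carried A17G and A19G, so that let-7b and let-7c were 1 base apart. let-7e carried U9G and let-7f carried G12A, each as its only difference from let-7a. let-7d carried U1A and U16C, let-7g carried G12U and U18C, and miR-98 carried G11A and A19U. let-7i was the most distant from let-7a, with G12U, A17G, U18C and A19U. Of the 36 pairs of members, 4 differed at 1 base and 10 at 2 bases. How the reads that matched several members were assigned is not given in the sources used here, so the split between near-identical members, and between let-7b and let-7c above all, is uncertain. The seed was shared by 11 mature entries of the RefSeq table. Of the other 2, let-7k had 2 to 64 counts a library, at most 0.00477% of the family sum, and miR-1961 was not analysed here.

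The members come from 12 hairpins in the GRCm38.p6 annotation of RefSeq and GENCODE, which is not the mm9 build named in the submitters' processing notes. The hairpins of let-7b (chr15:85707319-85707403, plus strand) and of 1 copy of let-7c (chr15:85706603-85706697, plus strand) lie side by side in the noncoding gene Lncppara, where both overlap an exon. The other let-7c hairpin (chr16:77599657-77599750, plus strand) is intronic to the noncoding host gene Mir99ahg and neighbours Mir99a. The let-7e hairpin (chr17:17830352-17830444, plus strand) is intronic to Spaca6 and neighbours Mir99b and Mir125a. Copies of let-7a (chr13:48538179-48538272) and let-7f (chr13:48537829-48537917) and the only hairpin of let-7d (chr13:48536012-48536114) form a cluster on the minus strand that overlaps an exon of a long noncoding RNA. The other let-7a copy (chr9:41536716-41536811, plus strand) neighbours Mir100. The other let-7f copy (chrX:151912346-151912428, plus strand) and Mir98 (chrX:151913214-151913321, plus strand) are both intronic to Huwe1. let-7g (chr9:106178840-106178927, plus strand) is intronic to Wdr82 and let-7i (chr10:122985640-122985724, minus strand) overlaps an exon of a transcribed pseudogene, and neither had another miRNA hairpin within 10000 bases. Where a member has a pair of hairpins, its counts cannot be assigned to either.

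The miRNA counts of a library summed to between 452021 and 7565362. They made up 2.0 to 5.0% of the library total in CON, 21.6 to 30.4% in FAC, 5.53 to 19.9% in DFO and 9.20 to 14.6% in VE. The library total is the number by which the authors divided each count to give RPM, and it lay between 22631206 and 24845945. Levels are given below as normalized CPM, which are counts scaled to the miRNA counts of the library and by TMM, so that each level is relative to the rest of the miRNAs in its library. Fewer cells, fewer exosomes or less RNA in each cannot be told apart in such bulk libraries. miRNAs of other cell types were also present: the liver miRNA miR-122-5p was 4.77 to 17.1% of the miRNA counts over the 12 libraries, and 3 erythroid miRNAs together were 0.822 to 16.9%. Most of this erythroid sum was the joined entry of miR-486a-5p and miR-486b-5p, at 0.779 to 16.8%. The other erythroid miRNAs were low, with miR-451a at most 0.342% and miR-144-3p at most 1 count in a library. The 6 listed members of a list of 8 granulosa-linked miRNAs summed to 0.0910 to 0.406% of the miRNA counts, 4 leukocyte miRNAs to at most 0.0356%, 5 epithelial ones to at most 0.0227% (0 in all VE libraries) and the 1 listed of 5 oocyte miRNAs to at most 0.00429%. Granulosa-linked miRNAs were thus a small part of the counts of libraries labelled as granulosa cell.

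The family sum was a large part of the miRNA counts in every library. In CON it was 21.3%, 25.8% and 30.7% of all miRNA counts in replicates 1 to 3 (25.9% ± 4.67, SD, n = 3). In FAC it was 11.1%, 16.4% and 15.0% (14.2% ± 2.76, SD, n = 3), so that the highest FAC library was under the lowest CON library. In DFO it was 35.1%, 43.9% and 22.1% (33.7% ± 11.0, SD, n = 3), a wide range that spanned most of the CON values and stayed above all FAC values. In VE it was 10.3%, 14.4% and 14.2% (13.0% ± 2.35, SD, n = 3), below all CON libraries and within the range of FAC apart from VE replicate 1. No p-value is given for this sum. Counting error alone was small: the 95% Wilson interval of a share was at most 0.255 percentage points wide, and reads multiplied by PCR are not separate molecules.

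Relative to the library total instead, the order of the groups was another one. The family sum was 10659, 5144 and 8688 RPM in CON (8164 ± 2795, SD, n = 3) and 33763, 35571 and 33059 RPM in FAC (34131 ± 1296, SD, n = 3), so that every FAC library lay above every CON library. It was 43887, 87173 and 12225 RPM in DFO (47762 ± 37624, SD, n = 3) and 9445, 17531 and 20700 RPM in VE (15892 ± 5804, SD, n = 3). In FAC the family thus took a smaller part of the miRNA counts than in CON, and a larger part of the library total, beside the larger miRNA share of that total in FAC.

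**Figure D1:**
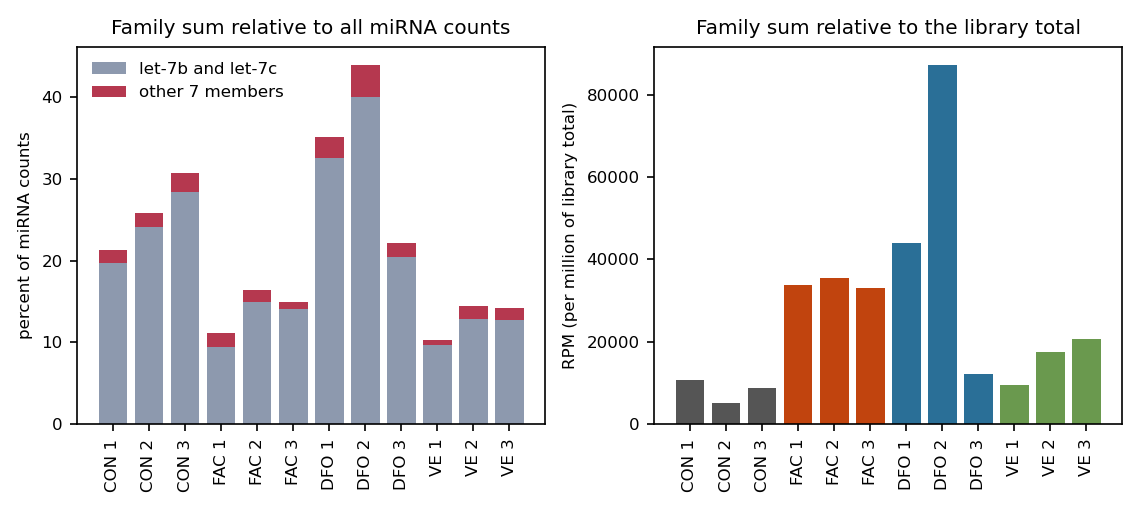
Sum of the 9 members in each of the 12 libraries, as percent of miRNA counts (left, let-7b with let-7c and the other 7 members stacked) and as RPM, relative to the library total (right, coloured by group). The FAC bars stand below the CON bars on the left (14.2% against 25.9% on average) and above them on the right (34131 against 8164 RPM).

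mmu-let-7c-5p and mmu-let-7b-5p carried most of the family. Together they held 91.4% ± 2.46 (SD, n = 12) of the family sum over the libraries, from 85.5 to 94.0%. mmu-let-7c-5p ranked between 1 and 6 among all miRNAs of a library and mmu-let-7b-5p between 2 and 11. By the mean level over the libraries the order was let-7c (154868 normalized CPM), let-7b (46391), let-7a (6079), let-7f (4648), let-7i (3664), let-7e (2532), let-7g (656), let-7d (201) and miR-98 (80.4). let-7c exceeded let-7b, and let-7b exceeded let-7a, in 12 of 12 libraries. The next neighbours were not separated in this way: let-7a exceeded let-7f in 8 libraries, let-7f exceeded let-7i in 7, let-7i exceeded let-7e in 9, and let-7d exceeded miR-98 in 9. let-7e exceeded let-7g, and let-7g exceeded let-7d, in 11 of 12. Since all members have 22 bases, these levels are compared per length.

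Levels were compared between the groups with edgeR's quasi-likelihood test over the 547 entries with at least 10 counts in all, and all 9 members passed this filter. A member was called where its fold change was at least 1.5 with an unadjusted p under 0.05, the threshold of the study, and the Benjamini-Hochberg adjusted p over the 547 entries is given beside it. The 6 comparisons use the same 12 libraries and share groups, so their calls are not independent of each other.

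mmu-let-7b-5p, mmu-let-7c-5p and mmu-let-7e-5p were lower in FAC than in CON relative to the other miRNAs, by 3.42-fold, 2.09-fold and 4.88-fold, whereas with counts scaled to the library totals all 3 had positive log2 fold changes (1.37, 2.19 and 1.10), of which let-7b and let-7c were called and let-7e was not (edgeR adjusted p = 0.282). This comparison asks what iron did to the cargo of the exosomes. In the main edgeR fit, with TMM scaling and all 12 libraries, none of the 9 was called higher. let-7d was called higher in DESeq2 (log2 fold change 1.90), in edgeR scaled to total miRNA counts (2.38) and in edgeR without FAC replicate 3 (2.44), and 7 members were called higher with library totals. mmu-let-7b-5p was at 46520, 66864 and 83378 normalized CPM in CON replicates 1 to 3 and at 9890, 14283 and 33301 in the FAC replicates, so that the groups did not overlap (log2 fold change -1.78, SE 0.41, edgeR adjusted p = 0.00783). In the main edgeR fit it was the only entry of the 547 with an adjusted p under 0.05, a background of 0.183%. With edgeR's filterByExpr its adjusted p was 0.151 and no member passed, and with RLE factors let-7c and let-7e passed as well (edgeR adjusted p = 0.0111 for each). FAC replicate 3 lay highest of its group, nearest to the CON libraries. Leaving out 1 library moved the log2 fold change of let-7b between -2.40 and -1.51, and the adjusted p passed 0.05 when CON replicate 2 (0.0726), CON replicate 3 (0.0599), FAC replicate 1 (0.111) or FAC replicate 2 (0.102) was the one left out.

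mmu-let-7c-5p, the most abundant member, was at 148688, 219204 and 229383 normalized CPM in CON and at 74082, 90069 and 121406 in FAC (log2 fold change -1.06, SE 0.34, edgeR adjusted p = 0.0966). The groups did not overlap. mmu-let-7e-5p was at 1286, 4312 and 6735 normalized CPM in CON and at 641, 608 and 1280 in FAC (log2 fold change -2.29, SE 0.65, edgeR adjusted p = 0.0762). CON replicate 1 and FAC replicate 3 almost touched in let-7e, although the groups did not overlap.

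The other members did not pass the threshold between FAC and CON. mmu-let-7a-5p was at 4564, 5710 and 5293 normalized CPM in CON and at 2714, 2686 and 3495 in FAC, without overlap (log2 fold change -0.81, 95% interval -1.86 to 0.24). mmu-miR-98-5p, the member with the fewest reads, was at 162, 92.1 and 81.8 in CON and at 49.5, 52.3 and 32.5 in FAC, again without overlap and with a wide interval (-1.32, from -4.16 to 1.52). mmu-let-7d-5p was the only member with a positive log2 fold change, of 1.96 (from -0.29 to 4.20), at 68.8, 52.7 and 29.9 normalized CPM in CON and 271, 272 and 45.9 in FAC. 2 of its 3 FAC libraries lay far above CON and FAC replicate 3 lay among the CON values. let-7f, let-7g and let-7i overlapped between the groups, with log2 fold changes from -0.80 to -0.33.

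Set against all entries, 3 of the 9 members were called lower in FAC, where 7.13% of the 547 entries were, and 9.51% were called in either direction. The 2 groups did not overlap for 5 members (let-7a, let-7b, let-7c, let-7e and miR-98, all lower in FAC), where 13.3% of the 547 entries did not overlap. The median log2 fold change of the members was -0.81, that of all 547 entries was 1.38 and that of the 129 entries with a mean of at least 100 normalized CPM was -0.18. The summed erythroid miRNAs (2.69 to 5.52% in CON, 0.822 to 9.74% in FAC), miR-122-5p (10.7 to 11.1% and 6.09 to 12.4%) and the smooth muscle list led by miR-143-3p (2.82 to 11.0% and 3.61 to 7.51%) overlapped between the groups, and their part in the result was not tested.

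**Figure D2:**
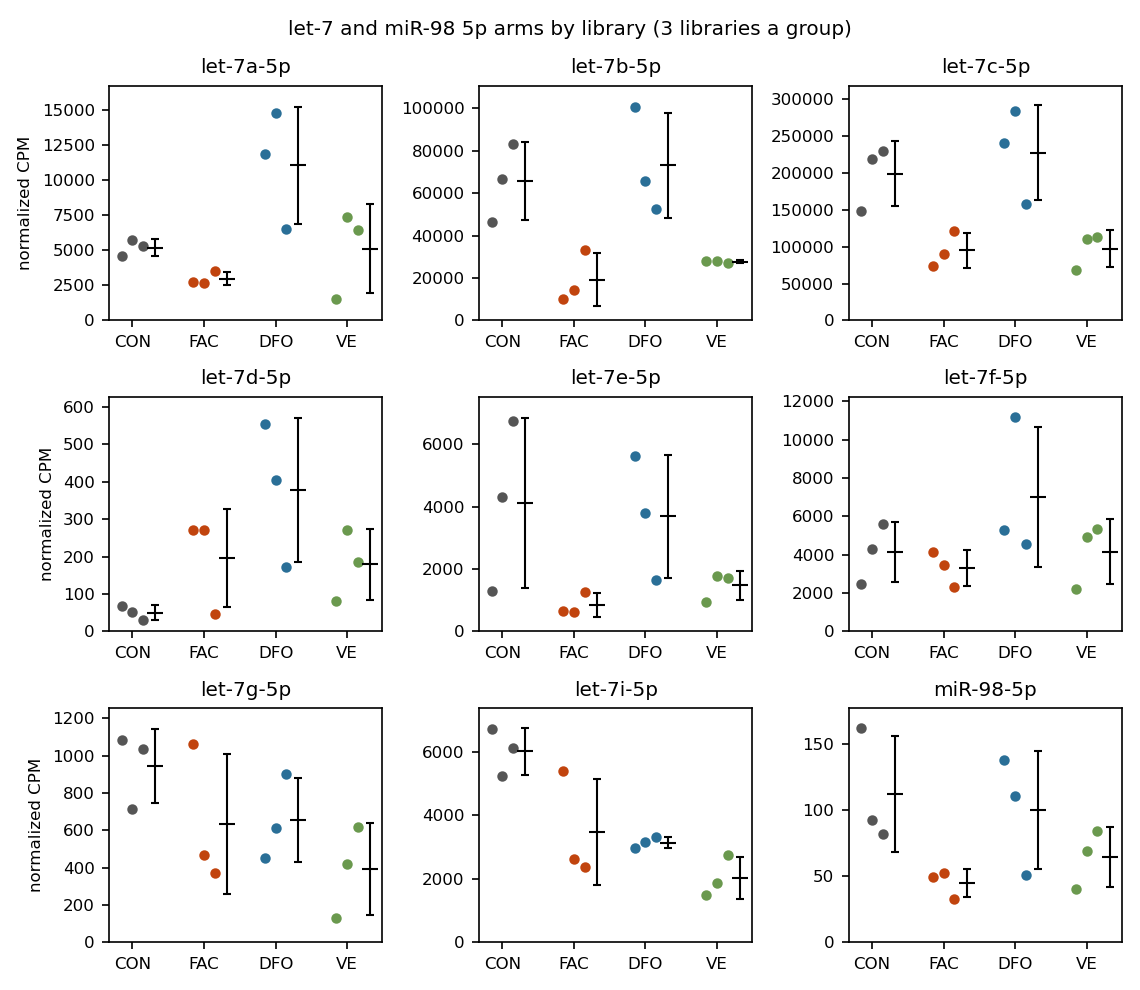
Level of each member in normalized CPM (counts scaled to the miRNA counts of the library and by TMM, linear axis from 0) in the 3 libraries of CON, FAC, DFO and VE; bars are the mean and SD. In let-7b and let-7c the FAC and VE points lie below the CON points on this scale, which turns when counts are scaled to the library totals, and in let-7d CON lies lowest on average (50.4 normalized CPM).

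With deferoxamine added to iron, more members were higher relative to the other miRNAs. mmu-let-7a-5p, mmu-let-7b-5p, mmu-let-7c-5p and mmu-let-7e-5p were lower in FAC than in DFO by 3.73-fold, 3.81-fold, 2.39-fold and 4.38-fold. Scaled to the library totals, 0 members were called, and let-7c had a log2 fold change of -0.39 there and of 0.05 in limma on log2(RPM + 1). mmu-let-7b-5p was at 100597, 65866 and 52755 normalized CPM in DFO (log2 fold change of FAC against DFO -1.93, SE 0.41, edgeR adjusted p = 0.000724, and 0.0582 without DFO replicate 1). mmu-let-7c-5p was at 241145, 284023 and 157887 in DFO (log2 fold change -1.26, SE 0.34, edgeR adjusted p = 0.0271). Its adjusted p was 0.0696 without FAC replicate 2, 0.162 without DFO replicate 1 and 0.184 without DFO replicate 2. The FAC libraries lay below the DFO libraries for both.

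mmu-let-7a-5p was at 11843, 14776 and 6517 normalized CPM in DFO, all above its FAC values (log2 fold change -1.90, SE 0.55, edgeR adjusted p = 0.0531). mmu-let-7e-5p was at 5621, 3792 and 1665 in DFO, again all above FAC (log2 fold change -2.13, SE 0.65, edgeR adjusted p = 0.0603). DFO replicate 3 was the lowest DFO library for let-7a, let-7b, let-7c, let-7e, let-7f, let-7d and miR-98. mmu-let-7f-5p was at 5260, 11185 and 4543 in DFO and at 4148, 3463 and 2291 in FAC, without overlap, and did not pass the threshold (log2 fold change -1.08, 95% interval -2.19 to 0.02). mmu-let-7g-5p and mmu-let-7i-5p were close between the groups, with log2 fold changes of -0.05 (from -1.65 to 1.56) and 0.14 (from -1.0 to 1.28), and these intervals are wide.

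The 4 called members compare with 7.50% of the 547 entries called lower in FAC, 12.2% called in either direction and 0.914% with an adjusted p under 0.05, of which let-7b and let-7c are 2. The libraries of FAC and DFO did not overlap for 5 members (let-7a, let-7b, let-7c, let-7e and let-7f) and for 16.6% of all entries. The median log2 fold change was -1.16 for the members, 0.66 for all entries and 0.20 for those with at least 100 normalized CPM. The smooth muscle list was 2.26 to 4.26% of the miRNA counts in DFO and miR-122-5p 4.77 to 16.0%. Their part in the result was not tested.

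With vitamin E added to iron, 0 of the 9 members were called against FAC in the main edgeR fit, where 9.32% of the 547 entries were called and 0.366% had an adjusted p under 0.05. 0 members had an unadjusted p under 0.05, and let-7i was called higher in FAC in DESeq2 and in edgeR on the 2 groups only. With counts scaled to the library totals, all 9 log2 fold changes were above 0 (median 1.02) and 3 members, let-7c, let-7g and let-7i, were called higher in FAC. mmu-let-7c-5p was at 68720, 110257 and 113555 normalized CPM in VE, a range like that in FAC, with a log2 fold change of FAC against VE of -0.03 (95% interval -0.69 to 0.62). mmu-let-7b-5p was at 28137, 28063 and 27039 in VE, within a narrow range, and FAC lay on both sides of it (log2 fold change -0.53, from -1.31 to 0.25). The log2 fold changes of the other members lay between -0.81 and 0.77. All 9 members overlapped between FAC and VE, while 14.6% of all entries did not. Without FAC replicate 3, let-7b was called lower in FAC and let-7i higher, and without VE replicate 1, let-7a was called lower in FAC. The median of the members was -0.33, against 0.63 for all entries and -0.03 for those with at least 100 normalized CPM.

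Against CON, the VE group was lower in 4 members relative to the other miRNAs. These were mmu-let-7b-5p (log2 fold change -1.24, SE 0.40, edgeR adjusted p = 0.0860), mmu-let-7c-5p (-1.03, SE 0.34, 0.0860), mmu-let-7e-5p (-1.47, SE 0.63, 0.434) and mmu-let-7i-5p (-1.57, SE 0.60, 0.235), and all 4 had positive log2 fold changes with counts scaled to the library totals, from 0.28 to 0.98. On that scale these 4 were not called and 3 other members, let-7a, let-7d and let-7f, were called higher in VE. mmu-let-7i-5p was at 6711, 5229 and 6107 normalized CPM in CON and at 1487, 1856 and 2747 in VE, without overlap. mmu-let-7e-5p was at 949, 1792 and 1699 in VE and overlapped CON through CON replicate 1. Its call was lost without CON replicate 3 (log2 fold change -0.96) and without VE replicate 1 (-1.24).

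The call rate for lower entries in VE was 7.13%, in either direction 10.4%, and 2.01% of entries had an adjusted p under 0.05 in edgeR. In the main fit none of these was a member, while 4 members had an unadjusted p under 0.05. let-7i passed the adjusted threshold in DESeq2 (log2 fold change -1.81). In edgeR, let-7b and let-7c passed it with RLE factors (adjusted p = 0.00837 and 0.00775), let-7b, let-7c and let-7i on the 2 groups only, and let-7c without the filter (0.0456). The groups did not overlap for let-7b, let-7c, let-7g and let-7i, all lower in VE, and for let-7d, higher in VE, where 13.0% of all entries did not overlap. mmu-let-7g-5p was at 1084, 716 and 1035 normalized CPM in CON and at 132, 421 and 621 in VE (log2 fold change -1.27, 95% interval -2.90 to 0.36). mmu-let-7d-5p was at 81.3, 271 and 186 in VE (1.83, from -0.41 to 4.07). The median of the members was -1.03, and that of all entries was 0 and that of the entries with at least 100 normalized CPM -0.02. The erythroid list, led by the miR-486 entry, was 8.32 to 16.9% of the miRNA counts in VE, above all CON libraries. The smooth muscle list was 1.30 to 1.89%, below all CON libraries. The granulosa-linked list was also below all CON libraries, at 0.123 to 0.153% in VE against 0.191 to 0.269% in CON. Their part in the result was not tested.

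Relative to the other miRNAs, 2 members were called between the group with iron and deferoxamine and CON. With counts scaled to the library totals, all 9 log2 fold changes were above 0 (median 2.41), 6 members were called higher and 5 of these had an adjusted p under 0.05 in edgeR. mmu-let-7a-5p was higher in DFO, at 11843, 14776 and 6517 normalized CPM against 4564 to 5710 in CON (log2 fold change 1.09, SE 0.54, edgeR adjusted p = 0.641). mmu-let-7d-5p was higher too, at 554, 404 and 173 against 29.9 to 68.8 (log2 fold change 2.90, SE 1.19, edgeR adjusted p = 0.520). The CON values of let-7d rest on 84, 20 and 19 counts. Neither group overlapped with the other for these 2 members. mmu-let-7b-5p and mmu-let-7c-5p were not separated, with log2 fold changes of 0.16 (95% interval -0.62 to 0.93) and 0.19 (from -0.46 to 0.85). mmu-let-7i-5p lay the other way, at 2967, 3153 and 3308 in DFO, below all CON libraries, and did not pass the threshold (log2 fold change -0.94, from -2.09 to 0.21). In all, 2.74% of the 547 entries were called higher in DFO, 7.68% in either direction and 0.548% with an adjusted p under 0.05, and 6.03% did not overlap. With TMM scaling no member had an adjusted p under 0.05 in edgeR, 2 had an unadjusted p under it, and let-7d passed the adjusted threshold in DESeq2 (log2 fold change 3.09). DESeq2 called 1 member higher, let-7d, and 1 lower. The call of let-7a was lost without CON replicate 1 (log2 fold change 1.01), DFO replicate 1 (1.01) or DFO replicate 2 (0.82) and in DESeq2 (1.15), and that of let-7d without DFO replicate 1 (2.48). The median of the members was 0.16, that of all entries 0 and that of the entries with at least 100 normalized CPM -0.26. The granulosa-linked list was 0.0910 to 0.164% of the miRNA counts in DFO, below all CON libraries, while the erythroid and smooth muscle lists and miR-122-5p overlapped between the groups. Their part in the result was not tested.

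Between the chelator and the antioxidant, each given with iron, all 9 log2 fold changes of DFO against VE were above 0, from 0.63 to 1.40. mmu-let-7a-5p (log2 fold change 1.11, SE 0.54, edgeR adjusted p = 0.391), mmu-let-7b-5p (1.40, SE 0.40, 0.0434), mmu-let-7c-5p (1.22, SE 0.34, 0.0320) and mmu-let-7e-5p (1.32, SE 0.63, 0.391) were called higher in DFO than in VE. With counts scaled to the library totals they had log2 fold changes from 1.49 to 1.68. On that scale let-7a, let-7b and let-7c were called and let-7e was not, and no member had an adjusted p under 0.05 in edgeR. let-7b and let-7c did not overlap between the groups, and let-7a did: its VE values were 1524, 7402 and 6425 normalized CPM, with VE replicate 1 far below the rest. let-7e was called in 1 of the 6 fits without a library, only without DFO replicate 3, and let-7a was not called without DFO replicate 2 (log2 fold change 0.84) or VE replicate 1 (0.68). let-7b had an adjusted p over 0.05 without any library but DFO replicate 3, up to 0.300, and so had let-7c, up to 0.348. Over all entries, 6.58% were called higher in DFO, 11.9% in either direction, 1.46% with an adjusted p under 0.05 and 13.7% did not overlap, beside the 3 members let-7b, let-7c and let-7i. The median was 1.07 for the members, 0 for all entries and -0.14 for those with at least 100 normalized CPM. The erythroid list, led by the miR-486 entry, was 1.76 to 8.32% of the miRNA counts in DFO and 8.32 to 16.9% in VE. The smooth muscle list was 2.26 to 4.26% in DFO, above all VE libraries (1.30 to 1.89%). Their part in the result was not tested.

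**Figure D3:**
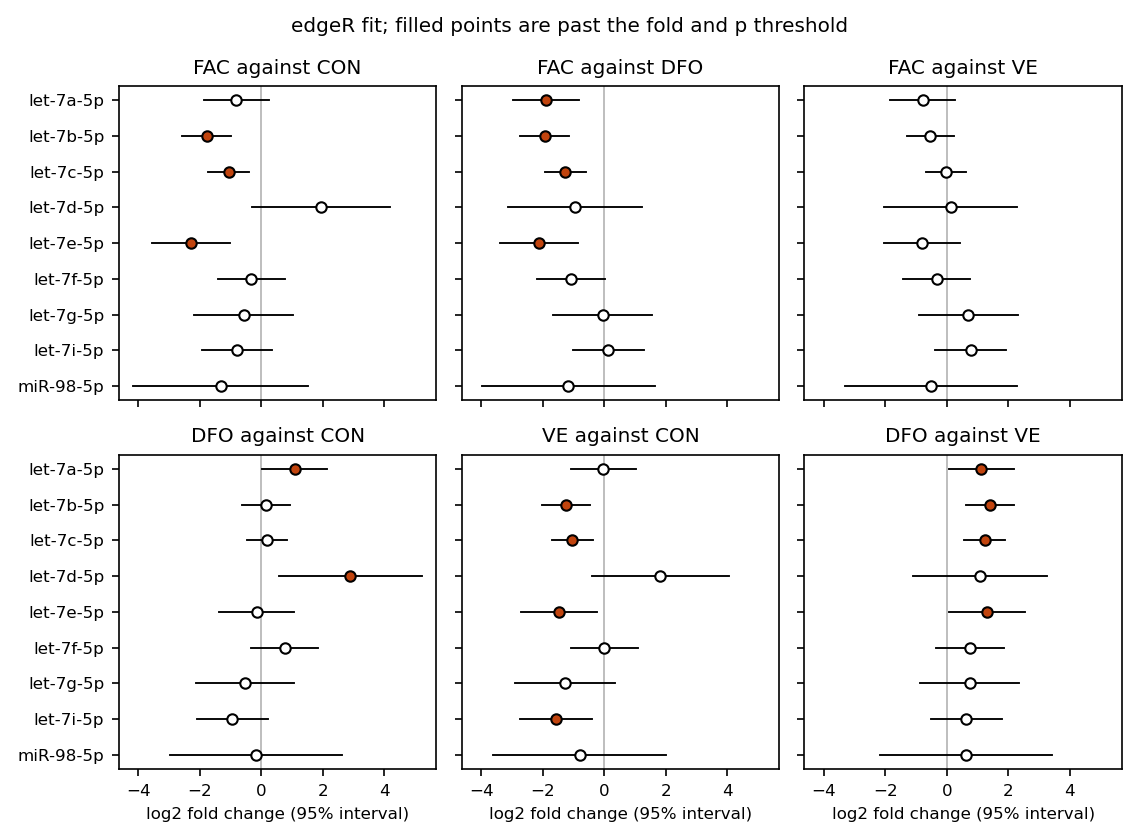
Log2 fold changes of the 9 members in the 6 comparisons with 95% intervals computed from edgeR's test. The first-named group is the numerator and filled points are members called at a fold of at least 1.5 and an unadjusted p under 0.05. Filled points lie left of 0 in FAC against CON (3), FAC against DFO (4) and VE against CON (4) and right of 0 in DFO against CON (2) and DFO against VE (4), on the scale relative to the other miRNAs; FAC against CON and VE against CON turn to the right when counts are scaled to the library totals.

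The members did not keep their shares of the family in every group. Shares within the family do not depend on the scaling of a library. mmu-let-7b-5p was 21.8 to 24.7% of the family in CON and 10.1%, 12.5% and 20.2% in FAC, each under the lowest CON value. In DFO it was 17.2 to 27.3% and in VE 17.1 to 27.2%, and both spanned the CON values. mmu-let-7c-5p was 69.9% ± 1.82 (SD, n = 3) of the family in CON and 75.9% ± 2.49 (SD, n = 3) in FAC, where each library lay above each CON library. The ratio of let-7c to let-7b was therefore 3.20, 3.28 and 2.75 in CON and 7.49, 6.31 and 3.65 in FAC. It was 3.23 ± 0.98 (SD, n = 3) in DFO and 3.52 ± 0.95 (SD, n = 3) in VE. These shares are given as a description, without a test, and they rest on the assignment of reads that differ at 1 base. The sum of both, which does not depend on how reads were split between let-7b and let-7c but does on reads shared with let-7a, 1 base from let-7c, was 24.0% ± 4.36 (SD, n = 3) of the miRNA counts in CON, 12.8% ± 2.95 in FAC, 31.0% ± 9.88 in DFO and 11.7% ± 1.82 in VE.

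mmu-let-7a-5p took 1.86% ± 0.295 (SD, n = 3) of the family in CON and 3.31% ± 0.501 (SD, n = 3) in DFO, and the libraries did not overlap. In FAC it took 2.41% ± 0.325 (SD, n = 3), and in VE 3.44% ± 1.74 (SD, n = 3). mmu-let-7i-5p took 1.71 to 3.17% in CON and 0.805 to 1.45% in DFO, and FAC replicate 1 stood highest with 5.48%. mmu-let-7f-5p took 1.18 to 1.66% in CON, 1.39 to 4.22% in FAC and 2.14 to 3.38% in VE. mmu-let-7d-5p took 0.00885 to 0.0325% in CON, 0.0279 to 0.275% in FAC, 0.0758 to 0.150% in DFO and 0.0787 to 0.175% in VE, so that every DFO and VE library lay above every CON library.

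**Figure D4:**
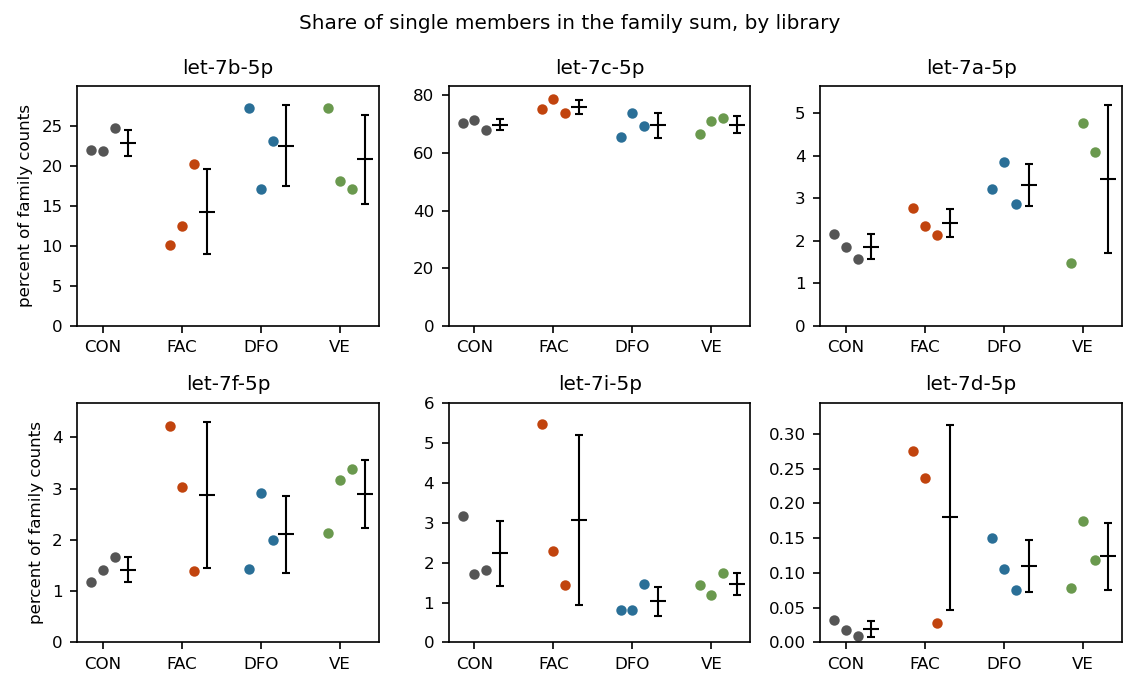
Percent of the family counts held by let-7b, let-7c, let-7a, let-7f, let-7i and let-7d in each library, by group, with mean and SD (axes start at 0). let-7b lies between 10.1 and 20.2% in FAC and between 21.8 and 24.7% in CON, and let-7d is lowest in CON on average.

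The 2 arms of the let-7d hairpin stood apart from those of the other members. The 3p arm exceeded the 5p arm in 12 of 12 libraries for let-7d, whose 5p arm made up 0.227 to 9.26% of the counts of both arms. For let-7b the 5p arm made up at least 99.3%, for let-7e at least 96.5%, for let-7i at least 99.9% and for miR-98 at least 81.2%, and no 3p entry of let-7g was analysed here. The 3p arms of let-7a, let-7c and let-7f are named by hairpin copy, 1 entry joins a copy of let-7a with one of let-7c, and they were not set against the 5p arms here. The 5p share of let-7d was 0.647% ± 0.517 (SD, n = 3) in CON, 6.34% ± 5.02 in FAC, 3.37% ± 1.36 in DFO and 2.17% ± 1.20 in VE. CON lay below DFO in every library and overlapped FAC and VE.

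The miRNAs whose hairpins neighbour those of let-7c, let-7a and let-7e, or of their paralogous clusters, were compared as a list of 5 (miR-99a-5p, miR-100-5p, miR-125b-5p, miR-99b-5p and miR-125a-5p). They were tested with TMM scaling only. Between FAC and CON, 1 was called higher and 0 lower, where 9.51% of the 547 entries were called in either direction. This was mmu-miR-99a-5p, at 69958, 89029 and 62216 normalized CPM in CON and 173151, 161331 and 113503 in FAC (log2 fold change 1.02, SE 0.36, edgeR adjusted p = 0.135), without overlap and, on this scale, opposite in sign to let-7c, whose hairpin on chromosome 16 is its neighbour. let-7c has another hairpin, on chromosome 15. Between FAC and DFO, where 12.2% of all entries were called, miR-99a-5p was higher (1.32, edgeR adjusted p = 0.0283), and mmu-miR-125a-5p, the neighbour of let-7e, was lower in FAC (log2 fold change -2.51, edgeR adjusted p = 0.000724). mmu-miR-125a-5p was at 1495, 2241 and 5265 normalized CPM in FAC and 20231, 24262 and 6662 in DFO. Between FAC and VE 0 of the 5 were called in edgeR, and 0 had an unadjusted p under 0.05. miR-125a-5p was higher in DFO than in CON (1.64, edgeR adjusted p = 0.220) and than in VE (1.81, edgeR adjusted p = 0.0438), and miR-99a-5p was higher in VE than in CON (0.74, edgeR adjusted p = 0.460) and lower in DFO than in VE (-1.04, edgeR adjusted p = 0.154). miR-99b-5p, miR-100-5p and miR-125b-5p were called in 0 of the 6 comparisons in edgeR. The shares of all entries called were 9.32% between FAC and VE, 7.68% between DFO and CON, 10.4% between VE and CON and 11.9% between DFO and VE.

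**Figure D5:**
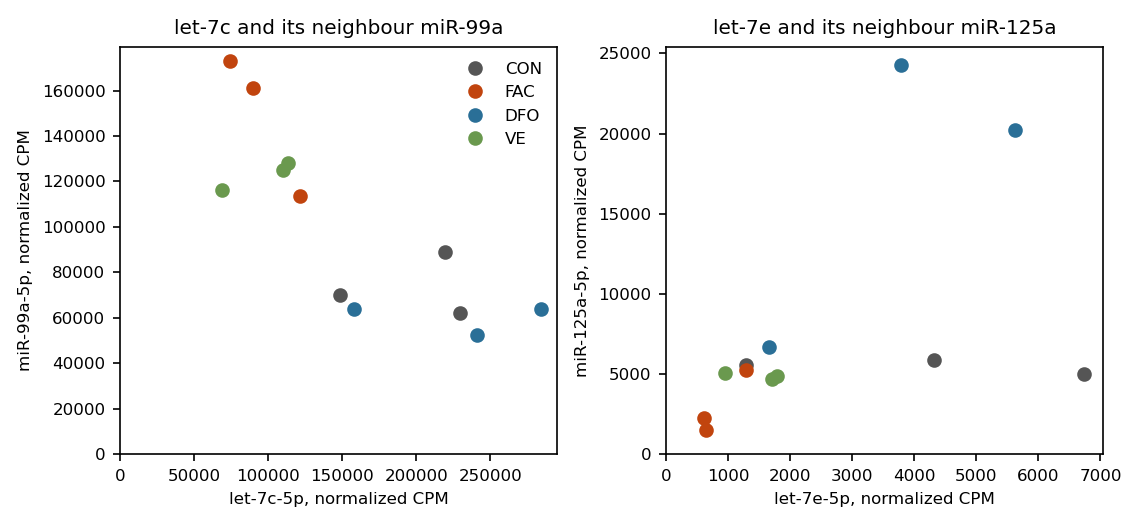
Normalized CPM of let-7c against its chromosomal neighbour miR-99a (left) and of let-7e against its neighbour miR-125a (right), 1 point a library, coloured by group, both axes linear from 0. On the left the FAC and VE libraries lie at high miR-99a and low let-7c, and on the right DFO replicates 1 and 2 lie highest in miR-125a (20231 and 24262 normalized CPM).

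Across the 12 libraries, the entries outside the family whose log2 CPM was most like that of the family sum, among 121 with a mean of at least 100 normalized CPM, were mmu-miR-744-5p (Pearson r 0.83), mmu-miR-672-5p (0.81) and mmu-miR-125a-5p (0.80). Of the members, let-7c (0.99), let-7b (0.93), let-7e (0.92) and let-7a (0.81), which are part of that sum, had the highest r. let-7i (0.39) and let-7g (0.37) had low values and let-7d had -0.04. These values describe libraries that share groups and the scaling.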

How the data were processed

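Small RNA of granulosa cell exosomes was sequenced (Illumina HiSeq, reads of 15 to 41 bp). For each library the authors deposited read counts per miRNA entry and the same values as RPM, which their files call TPM. The submitters' processing notes name the mm9 build. The aligner, the counter, the miRNA database and the treatment of reads matching several miRNAs are not given in the sources used here. Counts divided by RPM gave 1 total a library.

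Members and lists were chosen with earlier results of these data known. Counts were tested with edgeR 4.0.16 in R 4.3.3 (TMM, quasi-likelihood, 12 libraries in 1 fit, at least 10 counts in all). All 9 members were named, neighbouring miRNAs where called, and the 3 entries most like the family sum by Pearson correlation of log2 CPM (prior count 2). The fit was run on simulated data at a spread between libraries lower than that of these data, and also at their common spread. A pass mark was set only at the lower spread. How well the fit recovered changes at the spread of these data is not reported here. No 2 libraries agreed within sampling noise (chi-square per degree of freedom at least 155.7 over 66 pairs). Alternatives were other scalings and filters, DESeq2 1.42.0, limma 3.58.1 on log2(RPM + 1) and log2(RPM + 0.1), a replicate block, and each library left out. Precision follows the counts: 3 counts were 0.397 to 6.64 CPM. Levels on deposited RPM are relative to the library total.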

Additional observations from a re-analysis of the deposited data

How the results depend on the processing

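The direction of called members in FAC against CON and VE against CON turned with scaling to the library totals, and the median of the 9 members in FAC against VE, with no call, moved from -0.33 to 1.02. In FAC against CON the log2 fold changes with library totals, limma on log2(RPM + 1) and limma on log2(RPM + 0.1) were 1.37, 1.39 and 1.39 for let-7b, 2.19, 2.25 and 2.25 for let-7c and 1.10, 1.23 and 1.24 for let-7e. In VE against CON they were 0.73, 0.79 and 0.79 for let-7b, 0.98, 0.95 and 0.95 for let-7c, 0.72, 0.75 and 0.76 for let-7e and 0.28, 0.38 and 0.38 for let-7i. In FAC against DFO let-7c was at 0.049 in limma on log2(RPM + 1) and at 0.049 in limma on log2(RPM + 0.1). By construction these settings keep the difference in the miRNA share of the library total.

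The number of members called moved as follows. For FAC against CON (3) it was 7 with library totals, 7 and 6 in limma with 1 and 0.1 added, all higher, and 6 in DESeq2, 1 higher and 5 lower. For FAC against DFO (4) it was 0 with library totals and in both limma fits. For FAC against VE (0) it was 3 with library totals, 1 in DESeq2, 1 with the 2 groups only and 2 in limma on log2(RPM + 1). For DFO against CON (2, both higher) it was 6 with library totals, 6 and 5 in the limma fits and 1 with the replicate block. It stayed at 2 in DESeq2, with 1 higher and 1 lower. For VE against CON (4, all lower) it was 3 with library totals and 2 and 1 in the limma fits, all higher. For DFO against VE (4) it was 7 with the 2 groups only and 1 and 0 in the limma fits. The cause of the moves with DESeq2 and with the 2 groups only was not tested. Over the median entry, library totals moved FAC against CON from 1.38 to 4.35 (log2).

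The number of members with an adjusted p under 0.05 ranged over the settings that leave out no replicate from 0 to 5 in FAC against CON, 0 to 4 in FAC against DFO, 0 to 5 in DFO against CON, 0 to 3 in VE against CON and 0 to 4 in DFO against VE, and was 0 in FAC against VE. In FAC against CON the 5 came only with library totals and limma on log2(RPM + 1), where all 9 log2 fold changes were above 0. With RLE factors it was 3, let-7b, let-7c and let-7e, all lower in FAC. The 5 in DFO against CON came with library totals.

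With each library left out, the count was 3 to 4 in FAC against CON, 4 to 5 in FAC against DFO, 0 to 2 in FAC against VE (2 without FAC replicate 3), 0 to 3 in DFO against CON (0 without DFO replicate 1), 3 to 4 in VE against CON and 2 to 4 in DFO against VE (2 without DFO replicate 2 or VE replicate 1).

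The replicate numbers did not pair the libraries: the mean r of their deviations was 0.00421 for 18 same-numbered pairs and -0.00202 for 36 others. With the replicate number as a block, the counts were 3, 4, 0, 1, 4 and 4 in the order of the comparisons above, and let-7a lost its call in DFO against CON (log2 fold change 1.10). With TMM-normalized CPM the mean family shares were 28.5% in CON, 12.6% in FAC, 32.7% in DFO and 13.9% in VE. Each moved by less than the SD of its group. Adding the other entries of the seed and leaving out each library were the only other settings run for these shares. Neither can decide how stable they are: let-7k is too small, and leaving out 1 of 3 libraries cannot move a mean by its SD. Low counts limit let-7d and miR-98, with 19 and 35 counts in their lowest libraries.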

Other observations

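The ratios of further members are given as values. The ratio of let-7g to let-7i counts was 0.156 ± 0.017 (SD, n = 3) in CON, 0.177 ± 0.021 in FAC, 0.206 ± 0.061 in DFO and 0.181 ± 0.080 in VE, although the 2 hairpins lie on different chromosomes. The ratio of let-7c to let-7a was 38.1 ± 5.39 (SD, n = 3) in CON, 31.9 ± 3.99 in FAC, 21.3 ± 2.62 in DFO and 25.9 ± 16.7 in VE, and the DFO libraries lay below the CON libraries. The ratio of let-7f to let-7a was 0.788 ± 0.259 in CON, 1.16 ± 0.451 in FAC, 0.633 ± 0.166 in DFO and 0.981 ± 0.414 in VE (SD, n = 3 each), and all groups overlapped with CON.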
